A study of Homo sapiens with 15 samples.

Results

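The p53 arrest and feedback targets described here are 9 genes, CDKN1A, MDM2, GADD45A, PLK2, PLK3, BTG2, CCNG1, PPM1D and PHLDA3, found by their symbols among the 43388 genes with counts in each library. All 9 passed the filter on low counts, which left 15339 genes. RNA-seq libraries came from A549, an established cell line of adenocarcinomic human alveolar basal epithelial cells, labelled wild type and cultured with 10% fetal bovine serum. Cells spent 72 hours in 95% oxygen (hyperoxia) or 21% oxygen (normoxia). At each oxygen exposure, 3 libraries came from cells given 1e-05 mM all-trans retinoic acid (ATRA), the active form of vitamin A, for 24 hours beforehand. Another 2 had the ethanol vehicle alone, and 2 carry labels naming neither agent, called no vehicle here. These 14 libraries form 6 groups, and they ask how oxygen exposure and ATRA pretreatment move the transcriptome of lung epithelial cells. A fifteenth library with conflicting labels entered no comparison.

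The transcription factor p53 is held at low levels in unstressed cells because MDM2, itself a p53 target, marks it for degradation. DNA damage and oxidative stress stabilize p53, which then binds paired copies of a short DNA motif near its target genes and raises their transcription. Some of these targets halt the cell cycle, and others feed back to restrain p53 or growth signals.

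Sequence around the start sites was examined because the known route to these genes is p53 binding. RefSeq promoter entries (GRCh38.p14) matched 7 of the 9 genes, the others being GADD45A and PHLDA3. Within 2.5 kb on either side of each start, both strands were searched for the 20-letter p53 response element consensus, with the C and the G of both cores required (4 letters) and at most 2 mismatches in all. The runs below are shown because they let the gene with no detectable oxygen effect be set beside those that rose. Capitals mark the 2 four-letter cores.
CDKN1A, chr6:36676449-36676468, plus strand, 2 mismatches: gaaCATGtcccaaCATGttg
MDM2, chr12:68808923-68808942, plus strand, 2 mismatches: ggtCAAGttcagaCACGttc
PLK2, chr5:58462274-58462293, minus strand, no mismatch: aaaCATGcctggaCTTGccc
BTG2, chr1:203303642-203303661, plus strand, 2 mismatches: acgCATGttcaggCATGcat
CCNG1, chr5:163437926-163437945, plus strand, 1 mismatch: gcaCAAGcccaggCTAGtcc
CCNG1, chr5:163439946-163439965, plus strand, 2 mismatches: gacCTAGtcaagaCTTGctt

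Distances were counted from the start site of the promoter entry, which for CDKN1A lies inside the annotated gene. The CDKN1A, PLK2 and BTG2 runs lay upstream of that site, at -2256, -2198 and -1868 bases, and the MDM2 run lay 760 bases downstream of it. CCNG1 held runs 364 and 2384 bases downstream. No match was found in the windows of PLK3 and PPM1D. Of the 7 windows, 5 held a match (71.4%), against 4.05% of the windows of 27326 RefSeq starts and 3.72% of those of genes that passed the filter. A match of letters describes the sequence and is not a measured binding site.

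None of the matches lay inside the 300-base promoters, from 250 bases before to 50 after the start. The promoters of CDKN1A, which had the highest hyperoxia level per length, and of CCNG1, which had the smallest oxygen difference, are printed with the GC box (GGGCGG on either strand) in capitals.
CDKN1A, chr6:36678464-36678763, plus strand: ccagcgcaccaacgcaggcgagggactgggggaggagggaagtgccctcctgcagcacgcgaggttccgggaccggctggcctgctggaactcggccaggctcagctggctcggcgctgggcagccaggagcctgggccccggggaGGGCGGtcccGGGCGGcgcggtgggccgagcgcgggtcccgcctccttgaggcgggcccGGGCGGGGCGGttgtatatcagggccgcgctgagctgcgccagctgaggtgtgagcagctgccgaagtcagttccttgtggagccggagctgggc
CCNG1, chr5:163437321-163437620, plus strand: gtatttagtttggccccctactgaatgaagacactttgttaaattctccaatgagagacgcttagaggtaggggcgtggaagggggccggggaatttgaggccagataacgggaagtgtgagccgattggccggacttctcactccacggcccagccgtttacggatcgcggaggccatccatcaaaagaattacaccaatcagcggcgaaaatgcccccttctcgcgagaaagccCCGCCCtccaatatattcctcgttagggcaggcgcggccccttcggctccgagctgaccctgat

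The CDKN1A promoter held 4 GC boxes, of which the last 2 overlap by 1 letter, and no CCAAT box (CCAAT on either strand). The CCNG1 promoter held 1 GC box and 4 CCAAT boxes. A GC box was present in all 7 promoters and in 44.6% of 27326 promoters of the same length, and a CCAAT box in 35.7% of them. G and C made up 56% of the CCNG1 promoter and between 70% and 74.7% of the others, beside a median of 58.3% over all promoters.

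The libraries held between 2642377 and 5605072 counts on genes, and 3 counts, the smallest share read here as detected, correspond to between 0.535 and 1.14 normalised counts in the CPM unit (library-size-scaled counts). These limits cover counting error only. Of 5 epithelial markers, CDH1, KRT8, KRT18 and KRT19 were detected in every library, while EPCAM ranged from 0 to 4.80 CPM. The sum of all 5, mostly KRT8 and KRT18, was 1685 to 4203 CPM in hyperoxia and 5743 to 9562 CPM in normoxia. Markers of fibroblasts, adipocytes and endothelial cells summed to at most 13.2, 6.19 and 6.26 CPM, and leukocyte markers to at most 31.6 CPM, nearly all of it ITGAM. All 5 epithelial markers had lower estimates in hyperoxia, with median log2 fold changes of -2.13 with vehicle, -1.94 with no vehicle and -1.55 with ATRA. The part of these lower counts in the results below was not tested. The 2 hyperoxia libraries with no vehicle stood further apart than any other replicates, with a chi-square per degree of freedom of 31.5 against 3.98 to 16.8, and replicate 1 had counts on 12657 genes where the other libraries had at least 16465. The labels do not say that replicates came from separate cultures, so p-values measure the spread between these libraries, which may be technical. In bulk RNA, more expressing cells and more RNA per cell cannot be told apart.

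Hyperoxia raised nearly all of these genes under every treatment. With vehicle, 7 of the 9 were higher at an adjusted p under 0.05 by edgeR, where 4.62% of all tested genes were called higher. With no vehicle, 8 of the 9 were called higher, against 7.57% of all genes, and with ATRA the same count was 8, against 6.45%. None was called lower, against 4.64%, 7.58% and 6.43% of all genes called lower and 9.26%, 15.2% and 12.9% called in either direction. The median log2 fold change (log2FC) of the 9 genes was 2.21 with vehicle, 2.46 with no vehicle and 2.85 with ATRA, while the median over all tested genes was 0.01, -0.10 and 0.01. For 8 of the 9 genes, all 7 hyperoxia libraries lay above all 7 normoxia libraries, a separation found for 6.34% of tested genes, with another 7.31% separated in the other direction. The exception was CCNG1.

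**Figure D1:**
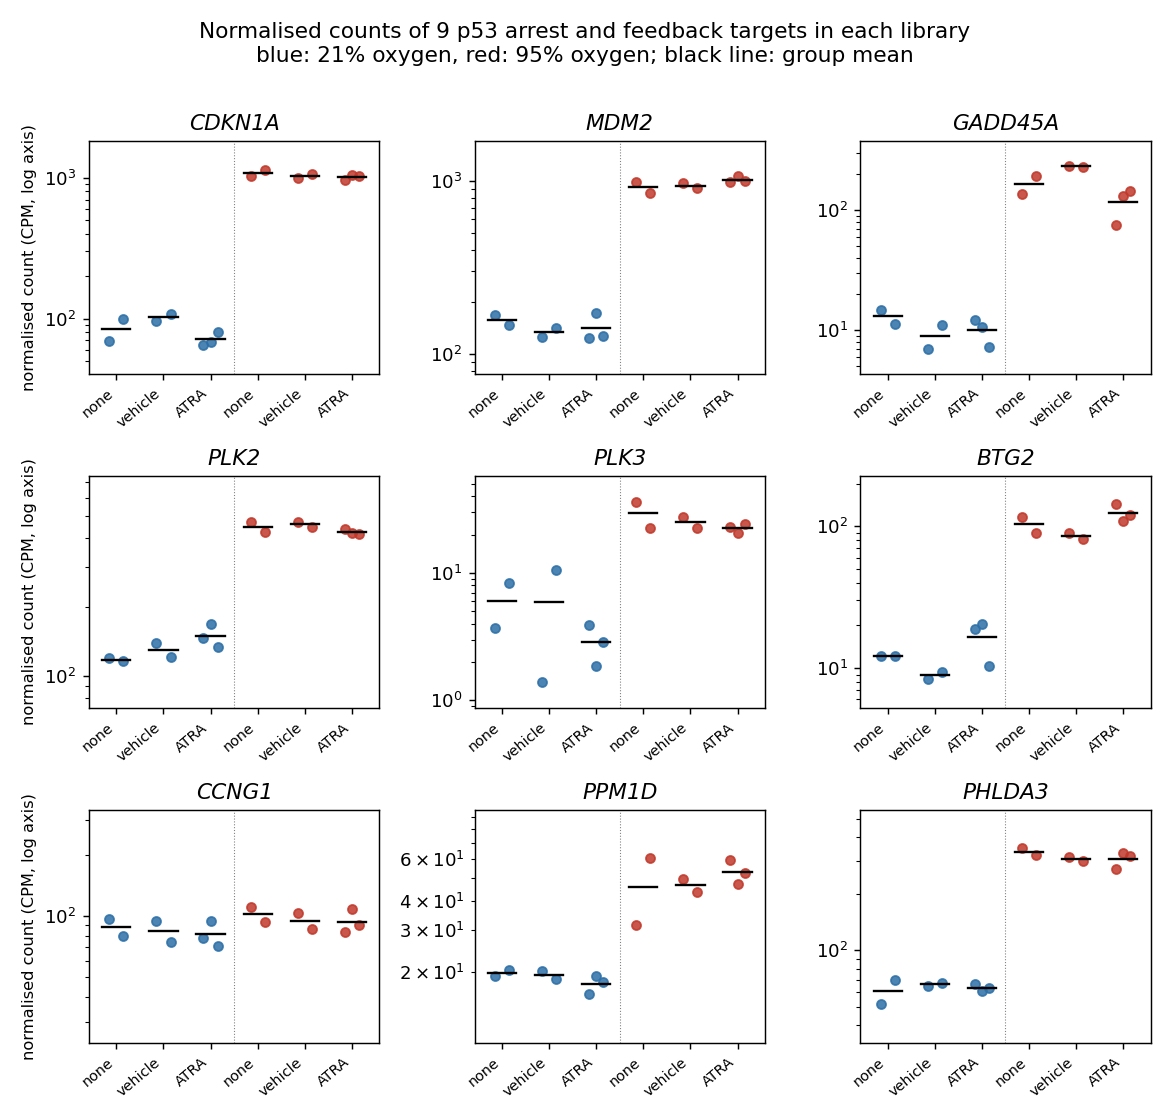
Normalised counts (CPM, log axis) of each of the 9 genes in the 14 libraries, by treatment, with normoxia in blue on the left and hyperoxia in red on the right of each panel and black lines at the group means. Red and blue points do not overlap in any panel but that of CCNG1, where both lie between 71.0 and 111 CPM.

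Among the genes that act on the cell cycle, CDKN1A encodes p21, an inhibitor of cyclin-dependent kinases and the best-known effector of p53 arrest. It lies on chromosome 6 from 36676463 to 36687332 (plus strand). Its hyperoxia libraries had 999.9 and 1067 CPM with vehicle, 1025 and 1140.4 CPM with no vehicle, and 963, 1045 and 1032 CPM with ATRA. In normoxia it had 95.9 and 108 CPM with vehicle, 68.8 and 99.1 CPM with no vehicle, and 64.9, 68.3 and 80.9 CPM with ATRA. The lowest hyperoxia library was 8.93 times the highest normoxia library, the widest gap among the 9 genes. Its log2FC was 3.34 with vehicle (standard error, SE, 0.17; Benjamini-Hochberg adjusted p = 2.87e-08 by the edgeR quasi-likelihood test), a 10.1-fold difference. With no vehicle it was 3.69 (SE 0.17, adjusted p = 7.92e-09 by edgeR) and with ATRA 3.83 (SE 0.14, adjusted p = 2.61e-10 by edgeR). CDKN1A had the smallest p-value of all tested genes under each of the 3 treatments.

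GADD45A, a stress sensor that binds p21 and PCNA and takes part in arrest before mitosis, lies on chromosome 1 from 67685201 to 67688334. It was scarce in normoxia, at 6.95 and 11.0 CPM with vehicle, 14.8 and 11.3 CPM with no vehicle, and 12.3, 10.6 and 7.29 CPM with ATRA. In hyperoxia it reached 235 and 228 CPM with vehicle, 137 and 194 CPM with no vehicle, and 75.2, 132 and 145 CPM with ATRA. The hyperoxia libraries differed 3.12-fold among themselves, the widest spread of the 9 genes at that exposure, and the vehicle pair was the highest. Its log2FC with vehicle, 4.63 (SE 0.34, adjusted p = 7.01e-07 by edgeR), was the largest of any of the 9 genes under any treatment and corresponds to a 24.7-fold difference. With no vehicle and with ATRA the values were 3.65 (SE 0.32) and 3.54 (SE 0.28).

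BTG2, an antiproliferative cofactor of mRNA deadenylation, lies on chromosome 1 from 203305519 to 203309602 (plus strand). In hyperoxia it had 89.9 and 82.1 CPM with vehicle, 117 and 89.3 CPM with no vehicle, and 143, 109.8 and 119 CPM with ATRA. In normoxia it stayed between 8.34 and 20.6 CPM. The log2FC values were 3.26 with vehicle (SE 0.29), 3.08 with no vehicle (SE 0.28) and 2.91 with ATRA (SE 0.22), all with adjusted p of 3.29e-06 or less by edgeR.

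PLK2 and PLK3 are polo-like kinases induced by stress, relatives of the mitotic kinase PLK1. PLK2, on chromosome 5 from 58453982 to 58460086 (minus strand), lay between 415 and 469 CPM in hyperoxia (median 439.5) and between 116 and 169 CPM in normoxia (median 134). Its hyperoxia libraries were the most alike of the 9 genes, differing 1.13-fold. The log2FC was 1.82 with vehicle (SE 0.14, adjusted p = 7.01e-07 by edgeR), 1.93 with no vehicle and 1.51 with ATRA.

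PLK3, on chromosome 1 from 44800377 to 44805990 (plus strand), had the fewest counts. In hyperoxia it had 27.3 and 22.6 CPM with vehicle, 36.4 and 22.5 CPM with no vehicle, and 23.1, 20.7 and 24.3 CPM with ATRA. Normoxia libraries held between 4 and 59 PLK3 counts each, or 1.39 and 10.5 CPM with vehicle, 3.71 and 8.40 CPM with no vehicle, and 3.91, 1.87 and 2.86 CPM with ATRA. The exposures did not overlap, and the 7 normoxia libraries differed 7.53-fold, with both ends of that range in the vehicle pair. PLK3 was called with no vehicle (log2FC 2.29, SE 0.63, adjusted p = 0.0230 by edgeR) and with ATRA (2.95, SE 0.56, adjusted p = 0.00219). With vehicle the log2FC was 1.98 (SE 0.63, adjusted p = 0.0607 by edgeR), which missed the threshold. Without normoxia vehicle replicate 2 it was 4.13 and called (adjusted p = 0.00761 by edgeR), and without replicate 1 it was 1.25. With no vehicle, the call was lost without normoxia replicate 1 (log2FC 1.77, adjusted p = 0.247 by edgeR). The gene DYNLT4 lies antisense to the end of PLK3 and held 69.7% of the counts that PLK3 did, and since the strand setting of the counting is not given in the sources used here, reads in the overlap may belong to either.

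CCNG1, or cyclin G1, recruits a phosphatase subunit to MDM2 and is among the classical p53 targets. It lies on chromosome 5 from 163437571 to 163457640 (plus strand). In hyperoxia it had 103 and 86.7 CPM with vehicle, 111 and 93.5 CPM with no vehicle, and 83.3, 108 and 90.4 CPM with ATRA. In normoxia it had 94.5 and 74.7 CPM with vehicle, 96.9 and 79.9 CPM with no vehicle, and 77.5, 94.9 and 71.0 CPM with ATRA. The 2 exposures overlapped under each treatment. Its log2FC was 0.17 with vehicle (95% interval -0.25 to 0.59), 0.21 with no vehicle (-0.20 to 0.63) and 0.21 with ATRA (-0.14 to 0.55), with adjusted p by edgeR of 0.746, 0.490 and 0.492. A doubling, 1 on the log2 scale, lay outside all 3 intervals. CCNG1 had between 272 and 558 counts per library, while PLK3 and PPM1D had at most 182 and 328. NUDCD2 lies antisense to part of CCNG1, with a count that was 27.4% of that of CCNG1.

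MDM2, PPM1D and PHLDA3, taken here as the feedback arm, were higher in hyperoxia under every treatment. CCNG1, described above, also acts on MDM2 and was not called under any treatment. MDM2, the ubiquitin ligase that marks p53 for degradation, lies on chromosome 12 from 68808172 to 68850686 (plus strand). In hyperoxia it had 969.6 and 907 CPM with vehicle, 982 and 855 CPM with no vehicle, and 981, 1059 and 998 CPM with ATRA. In normoxia it ranged from 123 to 172 CPM (median 142). The lowest hyperoxia library was 4.96 times the highest normoxia library. The log2FC was 2.81 with vehicle (SE 0.16, adjusted p = 8.07e-08 by edgeR), 2.54 with no vehicle (SE 0.16) and 2.85 with ATRA (SE 0.14). The gene CPM, which encodes carboxypeptidase M and lies antisense to the end of MDM2, had 14.6% of the MDM2 count.

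PPM1D encodes WIP1, a phosphatase that removes activating marks from p53 and from the kinases upstream of it. It lies on chromosome 17 from 60600193 to 60666280 (plus strand). In hyperoxia it had 49.3 and 43.4 CPM with vehicle, 31.6 and 60.3 CPM with no vehicle, and 59.1, 47.1 and 52.4 CPM with ATRA, while its normoxia libraries all lay between 16.2 and 20.4 CPM. The ratio of its hyperoxia median to its normoxia median, 2.55, was the smallest of the 8 genes that separated by exposure. Its log2FC was 1.25 with vehicle (SE 0.30, adjusted p = 0.0125 by edgeR), 1.20 with no vehicle (SE 0.30, adjusted p = 0.0122) and 1.56 with ATRA (SE 0.25, adjusted p = 0.000496). With vehicle, leaving out any 1 of the 4 vehicle libraries ended the call, at adjusted p between 0.0660 and 0.140 by edgeR and log2FC values of 1.16 to 1.34. With no vehicle it fell to 0.61 (adjusted p = 0.0792 by edgeR) without hyperoxia replicate 2, and the call was also lost without normoxia replicate 1 (adjusted p = 0.125 by edgeR) or replicate 2 (0.0762).

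PHLDA3, a small pleckstrin-homology protein that competes with the kinase AKT for membrane lipids, lies on chromosome 1 from 201464278 to 201469188. Its hyperoxia libraries lay between 270.1 and 348 CPM (median 317) and its normoxia libraries between 51.9 and 69.8 CPM (median 65.0). The log2FC was 2.21 with vehicle (SE 0.16, adjusted p = 5.97e-07 by edgeR), 2.46 with no vehicle and 2.27 with ATRA. The lowest hyperoxia library was 3.87 times the highest normoxia library, beside 3.99 times for BTG2.

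**Figure D2:**
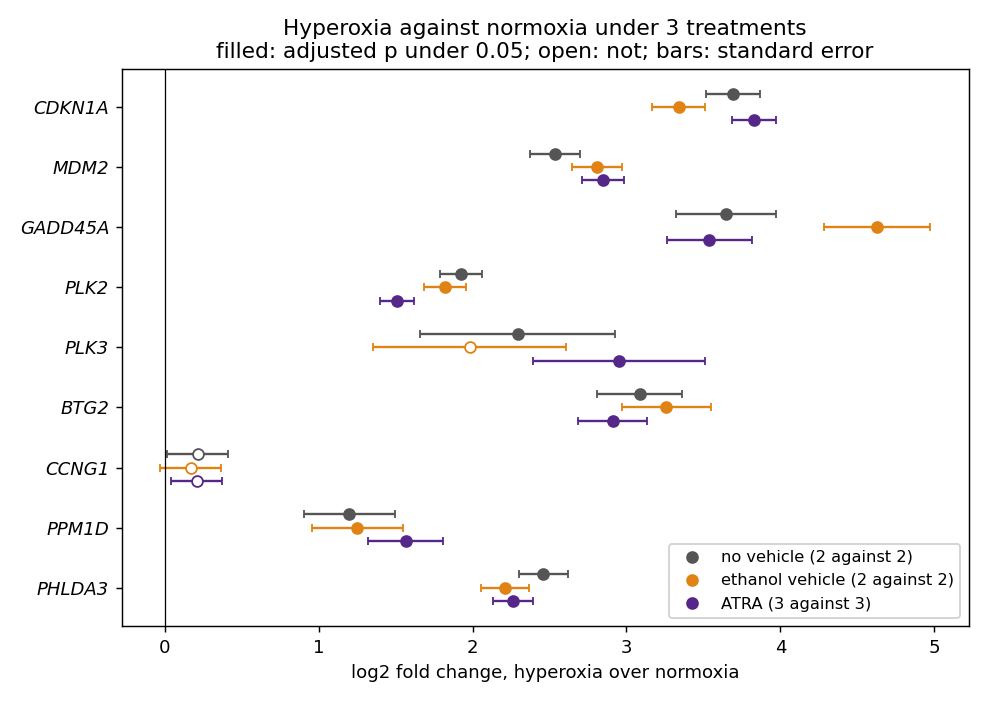
Log2 fold change of hyperoxia over normoxia for each of the 9 genes with no vehicle, with vehicle and with ATRA (points, bars for the SE, filled where the adjusted p was under 0.05). CCNG1 sits near 0 under each treatment, PLK3 with vehicle is open at 1.98, and GADD45A with vehicle lies farthest right at 4.63.

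Per length, in CPM per kb of the union of GENCODE 44 exons, the order of the genes differed between exposures. In hyperoxia CDKN1A led in every group, at 345 ± 15.9 (SD, n = 2 libraries) with vehicle, 361 ± 27.1 (SD, n = 2) with no vehicle and 338 ± 14.7 (SD, n = 3) with ATRA. With vehicle it was followed by GADD45A (120.2 ± 2.39), MDM2 (113 ± 5.29), PLK2 (98.6 ± 3.04) and PHLDA3 (94.6 ± 2.93), where GADD45A and MDM2, and likewise PLK2 and PHLDA3, differed by less than their summed SD. BTG2 (31.2 ± 1.99) and CCNG1 (30.7 ± 3.75) could not be ordered by the same measure, and PLK3 (7.50 ± 1.00) and PPM1D (4.93 ± 0.441) came last. In normoxia with vehicle CDKN1A (34.0 ± 2.81), PLK2 (28.0 ± 2.88) and CCNG1 (27.3 ± 4.54) led, and PLK2 and CCNG1 lay within each other's SD. In each normoxia group CCNG1 was among the first 3 of the 9 genes by mean, and in each hyperoxia group its mean was below that of BTG2, by less than their summed SD with vehicle and with no vehicle.

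ATRA was compared with vehicle at each exposure to ask whether the pretreatment moved these genes. In hyperoxia none of the 9 was called by edgeR, where 0.756% of tested genes were called and 1215 had an unadjusted p under 0.05. The median log2FC of the 9 genes was -0.02. GADD45A came nearest to a call. Its 3 ATRA libraries, at 75.2, 132 and 145 CPM, all lay below both vehicle libraries, at 235 and 228 CPM, while the libraries with no vehicle had 137 and 194 CPM. Its log2FC was -0.98 (SE 0.25, unadjusted p = 0.00115, adjusted p = 0.0971 by edgeR). This missed the threshold in the fit of all 14 libraries but passed it when only the 10 vehicle and ATRA libraries were fitted (log2FC -0.99, adjusted p = 0.0105 by edgeR) and with DESeq2 (-0.97, adjusted p = 0.0206). Over 14 fits that each left out 1 library, the estimate ranged from -1.19 to -0.74 and the adjusted p by edgeR from 0.00798 to 0.777. It passed without either hyperoxia library of no vehicle, which lies outside the comparison, and in no other of these fits, and the adjusted p was highest without vehicle replicate 1. The same vehicle libraries set the oxygen effect of GADD45A, so its larger rise with vehicle and its lower level with ATRA are not separate observations.

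BTG2 had 143, 109.8 and 119 CPM with ATRA in hyperoxia, all above the 89.9 and 82.1 CPM of the vehicle libraries, for a log2FC of 0.53 (SE 0.22, adjusted p = 0.520 by edgeR). The log2FC values of the other 7 genes lay between -0.13 (PLK3) and 0.19 (PPM1D). For CDKN1A it was -0.03 with a 95% interval of -0.32 to 0.27, and for MDM2 0.11 with an interval of -0.19 to 0.41. A difference of 2-fold in either was therefore outside the interval, while for PLK3 the interval of -1.27 to 1.01 was too wide for that.

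In normoxia none of the 9 was called either, against 0.456% of tested genes and 802 genes at an unadjusted p under 0.05. CDKN1A had 64.9, 68.3 and 80.9 CPM with ATRA, below both vehicle libraries at 95.9 and 108 CPM. The log2FC was -0.52 (SE 0.15, unadjusted p = 0.00343, adjusted p = 0.275 by edgeR), and DESeq2 gave -0.51 with an adjusted p of 0.0312. The libraries with no vehicle, at 68.8 and 99.1 CPM, spanned most of the distance between these groups. BTG2 was again above the vehicle pair, at 18.8, 20.6 and 10.4 CPM against 8.34 and 9.40 CPM (log2FC 0.88, SE 0.28, adjusted p = 0.396 by edgeR).

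**Figure D3:**
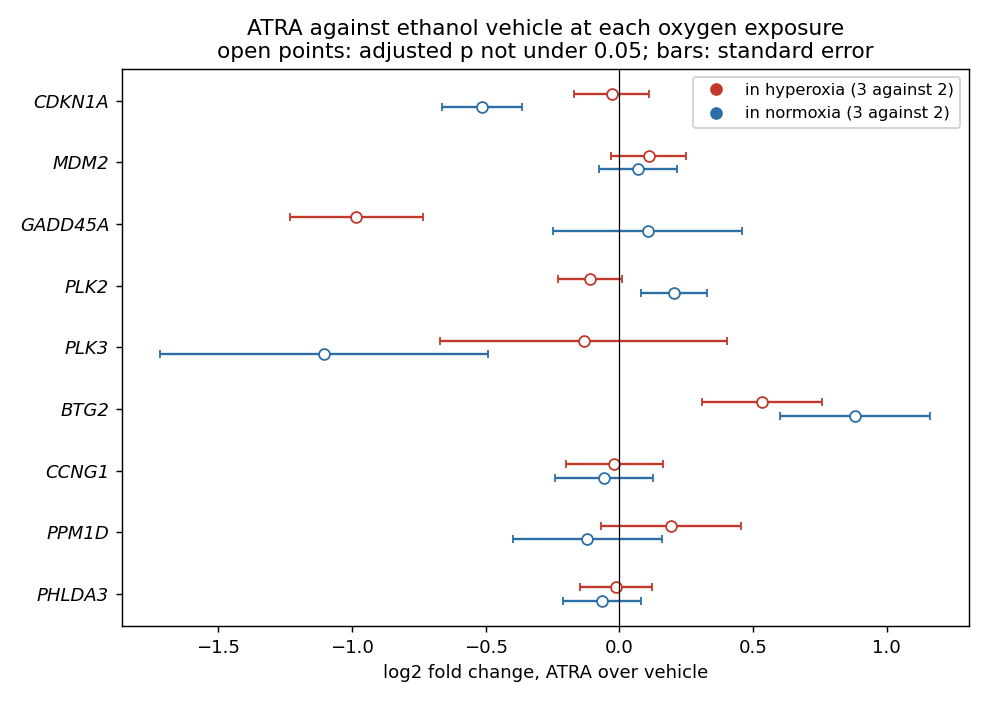
Log2 fold change of ATRA over vehicle for each of the 9 genes in hyperoxia (red) and normoxia (blue), with bars for the SE and open points because no adjusted p was under 0.05. GADD45A in hyperoxia lies at -0.98, BTG2 lies to the right of 0 at both exposures, and PLK3 in normoxia (-1.10) has the widest bar.

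The difference of the oxygen effects between ATRA and vehicle was tested by an interaction term. None of the 9 genes was called (0.0261% of all tested genes, 542 at an unadjusted p under 0.05). The estimates were -1.09 for GADD45A (SE 0.43, adjusted p = 1.000 by edgeR) and 0.49 for CDKN1A (SE 0.21, adjusted p = 1.000), with unadjusted p of 0.0230 and 0.0309. The same test between vehicle and no vehicle called none of the 9 (0.00652% of all genes called, 744 at an unadjusted p under 0.05), although GADD45A reached 0.98 (SE 0.46, unadjusted p = 0.0473). Without hyperoxia no-vehicle replicate 2 that difference was 1.27, but this fit leaves 1 library in that group, replicate 1, with counts on 12657 genes. Vehicle against no vehicle gave no call among the 9 in hyperoxia (0.00652% of all genes, 1366 at an unadjusted p under 0.05) or in normoxia (0% of all genes, 133 at an unadjusted p under 0.05). Without the same library, the log2FC of GADD45A for vehicle over no vehicle in hyperoxia was 0.79. GADD45A was called in both of these fits, but calls over all genes rose in them as well.

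Other genes of the p53 pathway were followed in lists. Of 10 genes for regulators of p53, none was called with vehicle, and 1 higher and 1 lower with no vehicle. With ATRA 1 was higher and 2 were lower. Over all tested genes 9.26%, 15.2% and 12.9% were called with vehicle, no vehicle and ATRA. The list medians were -0.07, -0.42 and -0.25, with 5, 4 and 3 of the 10 estimates above 0. The kinase CHEK1 had means of 37.1 CPM in normoxia and 14.6 CPM in hyperoxia with ATRA. CHEK2 had 10.9 and 3.23 CPM with no vehicle, where its lowest hyperoxia library was at 0.599 CPM. MDM4, the partner of MDM2 that holds p53 inactive, fell by 0.86 on the log2 scale with no vehicle and by 0.67 with ATRA (adjusted p = 0.0243 and 0.0328 by edgeR), and its value with vehicle was -0.14. The ubiquitin ligase COP1, also a known p53 target, rose by 1.02 with no vehicle (adjusted p = 0.0224 by edgeR), and its values with vehicle and with ATRA, 0.61 and 0.72, were not called (adjusted p = 0.225 and 0.0523).

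Most of the p53 targets listed for apoptosis and repair were called higher, with smaller medians than the 9 genes. Of 12 tested apoptosis targets, with 1 more that did not pass the filter, 9 were higher with vehicle, 10 with no vehicle and 12 with ATRA, with medians of 1.50, 1.76 and 1.59 and none lower. The largest value with vehicle was that of BBC3, which encodes the BH3 protein PUMA, at 2.17, and the smallest was 0.10 for the membrane protein PERP, which was not called there. Of 12 repair and metabolic targets, 9, 7 and 9 were higher and none lower, with medians of 1.16, 1.24 and 1.24. The nucleotide excision repair factor DDB2 was higher under every treatment, at 1.47, 1.66 and 1.62.

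The known downstream arm of p21 is the loss of cyclin-dependent kinase activity and the repression of cell cycle genes by the DREAM complex. Of 12 genes listed for that repression, 8 were lower with vehicle, 9 with no vehicle and 9 with ATRA, none higher. Their medians were -2.05, -2.30 and -2.09, and their dependence on p21 was not tested. The mitotic kinase PLK1 fell by 3.67, 4.62 and 3.20 on the log2 scale, opposite in direction to its relatives PLK2 and PLK3. Its 2 hyperoxia libraries with no vehicle had 0 and 18.2 CPM, beside 192 and 194 CPM in normoxia, so the value of 4.62 includes a library at 0. Of 10 tested cyclins and kinases bound by p21, CCNB1 fell most, by 3.53 with vehicle, while CDK6 and CCND1 rose by 1.17 and 0.51 with vehicle. CDK1 and CCND3 were lower under each treatment, and CDK2, CDK4, CCNE1 and CCNE2 were not called under any. Among the other CDK inhibitors, CDKN2A and CDKN2B had 0 counts in all 14 libraries and CDKN1C did not pass the filter. Of the 4 tested, 1 was lower with vehicle, 1 with no vehicle and 2 with ATRA, none higher, with medians of -2.08, -1.75 and -1.28. CDKN1B, the closest relative of CDKN1A in that list, was not called (-0.60, 0.16 and -0.51), and CDKN3, a phosphatase named with them, was lower under each treatment. CDKN2C had at most 6.39 CPM in the hyperoxia libraries and at least 11.2 CPM in the normoxia libraries.

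Relatives of the 9 genes in the same families moved in both directions. Of 13 tested, 3 were higher and 2 lower with vehicle, 2 higher and 3 lower with no vehicle, and 4 higher and 3 lower with ATRA. Their medians were 0.32, -0.41 and -0.07. Calls were more frequent among them than over all tested genes, of which 9.26%, 15.2% and 12.9% were called. GADD45B rose by 2.16, 1.92 and 1.58 (adjusted p of 9.15e-05 or less by edgeR), while GADD45G did not pass the filter. TOB2 was higher and TOB1 lower under every treatment, both being relatives of BTG2. BTG1, another relative of BTG2, had hyperoxia and normoxia means of 134 and 51.6 CPM with vehicle and 122 and 57.0 CPM with ATRA. With no vehicle its means were 93.3 and 59.9 CPM, and its hyperoxia libraries had 51.1 and 136 CPM. BTG3 differed less, with medians of 19.1 CPM in hyperoxia and 14.4 CPM in normoxia. CCNG2, PHLDA1 and PHLDA2 were not called under any treatment.

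**Figure D4:**
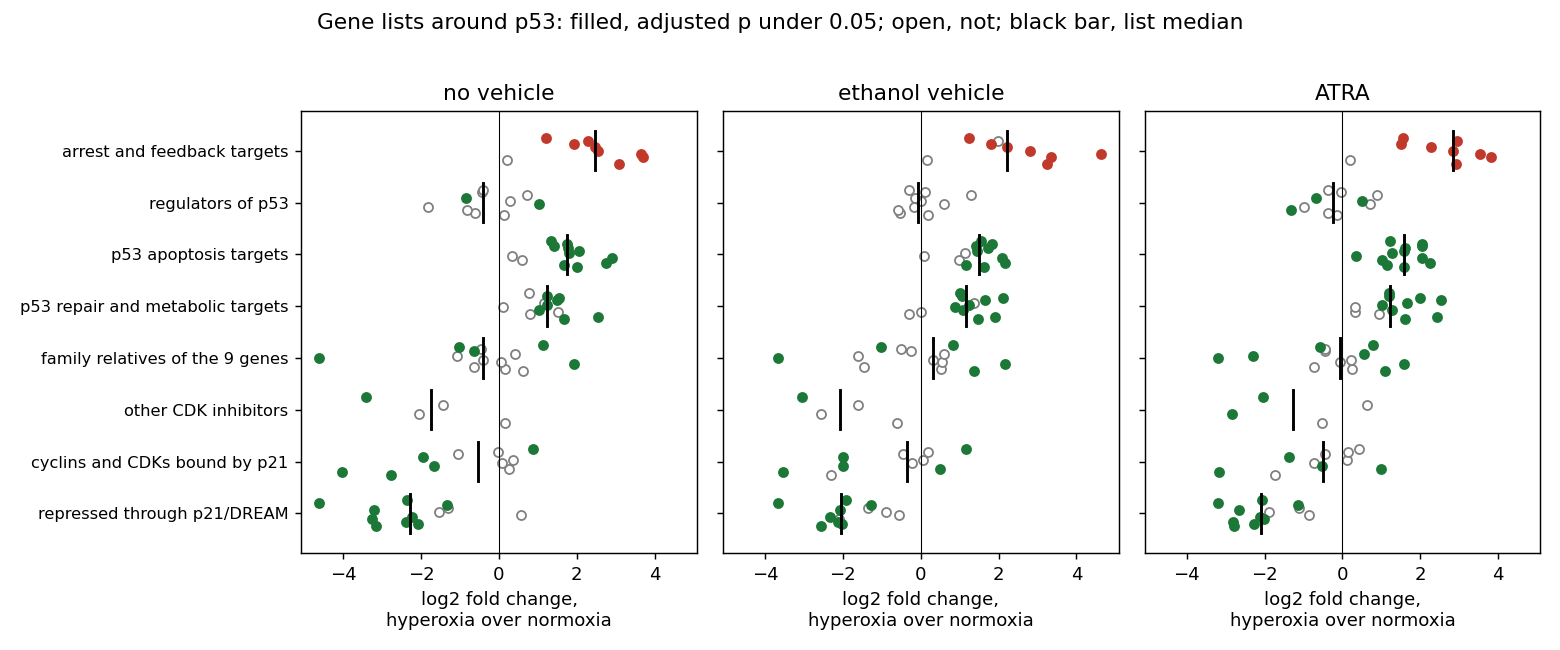
Log2 fold change of hyperoxia over normoxia for the tested genes of each list (points, filled where the adjusted p was under 0.05) and the list median (black bars), in 1 panel for each treatment. The 9 arrest and feedback targets have the highest medians, at 2.21, 2.46 and 2.85. The genes listed as repressed through p21 lie mostly below -1, and their dependence on p21 was not tested.

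The genes whose pattern over the 14 libraries was most like the 9 were found by Pearson's r with the mean of their standardized log2 CPM. The closest was CPM (r = 0.994), whose end overlaps MDM2, then GREB1 (0.987), CYP1B1 (0.987), UBAP1 (0.983) and DDB2 (0.983). Of 15330 other tested genes, 386 (2.52%) had an r above 0.9. All 14 libraries share the exposure contrast, so these values mainly place a gene by its oxygen difference. Among the 9 themselves r with their mean was between 0.898 (PLK3) and 0.996 (MDM2) except for CCNG1, at 0.602. Each of the 9 is part of that mean, which raises its own r. Within the 7 hyperoxia libraries alone, r between pairs of the 9 ranged from -0.95 (GADD45A and BTG2) to 0.85 (CCNG1 and PHLDA3). These are the extremes of many pairs, and the libraries span 3 treatments, so r also holds differences between treatments. Mean GADD45A was 231 CPM with vehicle and 117 CPM with ATRA, and mean BTG2 was 86.0 and 124 CPM.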

How the data were processed

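RNA from A549 cells was sequenced with a stranded kit. Per the labels and methods, the authors trimmed reads with Trimmomatic 0.38, dropping those under 50 nt, mapped the rest to hg38 using HISAT2 and tallied genes using HTSeq. The annotation release, strand and overlap settings are not given in the sources used here. The deposited values are raw counts per gene symbol, plus 5 rows per library that name no gene and were left out. Reads in no feature made up 48.6% to 55.3% of each library.

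edgeR 4.0.16 was run in R 4.3.3. Genes were kept by filterByExpr (minimum count 10, minimum total 15), libraries were normalized by TMM, and a quasi-likelihood model of 6 groups was fitted to 14 libraries. Adjusted p-values are Benjamini-Hochberg over 15339 genes, and a gene was called under 0.05. A log2 fold change is a model estimate and CPM a normalized count with SD over libraries. Likeness used log2 CPM with a prior count of 2. The procedure was tested on simulated data. The 95% intervals come from the standard error.

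The 9 genes and the gene lists were chosen with earlier results of these data known. Named genes are the 9, the listed genes and the 5 most alike by r. Positions, promoters and overlaps came from RefSeq GRCh38.p14, with promoter sequences equal to hg38, and exon lengths from GENCODE 44. The alternatives were DESeq2 1.42.0, RLE size factors, no filter, fits of fewer groups, a block of library sets and leaving out each library in turn. No other series' columns were present. Plots used matplotlib 3.10.9 in Python 3.11.15. A result that belonged to the lists is not reported here.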

Additional observations from a re-analysis of the deposited data

Results flagged for a closer look

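One library has a title naming hyperoxia and a treatment label naming adipogenic differentiation, so it was placed in no group, but its counts for 8 of the 9 genes lay above every normoxia library. Its normalised counts were 1153 CPM for CDKN1A, 879.5 CPM for MDM2, 199.6 CPM for GADD45A, 409 CPM for PLK2, 28.2 CPM for PLK3, 80.2 CPM for BTG2, 48.9 CPM for PPM1D and 352 CPM for PHLDA3. Normalized together with the other libraries, the highest normoxia values were 108 CPM for CDKN1A, 173 CPM for MDM2, 14.9 CPM for GADD45A and 169.5 CPM for PLK2. They were 10.5 CPM for PLK3, 20.6 CPM for BTG2, 20.4 CPM for PPM1D and 70.0 CPM for PHLDA3. CCNG1, at 85.5 CPM, lay within the normoxia range of 71.2 to 97.1 CPM. Beside the hyperoxia libraries, CDKN1A and PHLDA3 lay above the highest values, 1143 and 349 CPM. PLK2 and BTG2 lay below the lowest hyperoxia values, 416 and 82.3 CPM, and the remaining genes lay within the hyperoxia ranges. The share of all tested genes that lay above every normoxia library was not computed for this library. Of 5 adipocyte markers, ADIPOQ, PLIN1, FABP4 and LEP had 0 counts in that library and CIDEC had 3. No test was made, and its condition was not inferred from these values.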

How the results depend on the processing

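Of 2020 values recomputed under alternatives, 1923 stayed on the same side of the threshold or, for a count or level, close to the main value. Among the 1123 uncalled differences of the 9 genes, 60 changed sign while they stayed uncalled, and no called one reversed. For ATRA in hyperoxia the number of the 9 called moved from 0 to 1, always GADD45A, with DESeq2 (adjusted p = 0.0206), with no filter (2.71e-05), with the 10 vehicle and ATRA libraries (0.0105), with only the groups compared (0.0201) and, chosen after seeing the data, without the 3 libraries numbered first (-0.74, 0.0326). Its adjusted p ranged from 2.71e-05 to 0.186 over all 7 alternatives other than leaving out 1 library, and from 0.00798 to 0.777 over the 14 fits that did so. For ATRA in normoxia it moved from 0 to 1 with DESeq2 (CDKN1A, adjusted p between 0.0312 and 0.292 over the alternatives). Over fits that each dropped 1 library, the number called ranged from 6 to 8 for oxygen with vehicle, 6 to 8 with no vehicle, 8 to 8 with ATRA, 0 to 1 for ATRA in hyperoxia, 0 to 1 for the oxygen effect of vehicle against no vehicle and 0 to 1 for vehicle in hyperoxia. It was 0 throughout for ATRA in normoxia, the other interaction and vehicle in normoxia. PLK3 with vehicle was called with DESeq2 (adjusted p = 0.0194), no filter (0.00802), the 10 libraries (0.00789), the groups compared (0.000276) and without either hyperoxia library of no vehicle (0.00818 and 0.00794). With no vehicle, the fit of only the groups compared ended the calls of PLK3 (0.205) and PPM1D (0.300). The cause was not tested.

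The labels give no replicate numbers that pair libraries. A replicate block of 3 library sets, inferred from the numbers in the titles, gave 8, 8 and 8 of the 9 genes called for oxygen with vehicle, no vehicle and ATRA and 0 for ATRA at either exposure, where it added PLK3 with vehicle (log2 fold change 2.26, adjusted p = 0.0292 from edgeR). Deviations of libraries of 1 set in different groups had r between -0.05 and 0.20 (median 0.02). Those of different sets had r between -0.20 and 0.05 (median -0.01). In a group of 2 the deviations are equal and opposite, so these ranges mirror each other. The sets were not used as pairs in the main fit.

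Counts over all genes moved more. With vehicle, 1420 genes were called, 2616 with the 10 libraries, 4665 with only the groups compared and 580 to 2590 with 1 library left out. With no vehicle the count was 2324, 58 with only the groups compared and 969 to 7364 with 1 left out, the highest without hyperoxia replicate 2. With ATRA it was 1975, 3391 with the 10 libraries and 1319 to 3465. For ATRA in hyperoxia it was 116, 300 with DESeq2, 246 with no filter, 331 and 264 with fewer groups and 22 to 306. In normoxia it was 70, 181, 166, 187, 206 and 12 to 184 in the same order. For the interaction with ATRA it was 4, 48, 33, 21, 21 and 0 to 17. The other interaction gave 1, 2 with DESeq2, 25 with no filter, 0 with the groups compared and 0 to 3759. Vehicle in hyperoxia gave 1, 10, 89, 0 and up to 5630 without hyperoxia replicate 2, and vehicle in normoxia gave 0, 1 with DESeq2 and 3 with no filter. RLE size factors changed no call of the 9 genes or the number whose exposures did not overlap, 8. Normoxia counts as low as 4 for PLK3 limit its precision, and groups of 2 limit every comparison.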
